A study of Mus musculus with 6 samples.

Results

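Fgf21, Gdf15, Adm2, Adm, Stc1 and Stc2, which encode secreted hormones that cells release under stress, were followed in mouse ADSCs carrying a hairpin against Ifit1 (3 libraries) and in ADSCs carrying a scrambled hairpin (3 libraries). The 6 genes were found by their symbol among the 19877 genes of the deposited table, and each matched 1 row. The set was selected on results that included the FPKM values of these same knockdown and scrambled libraries, so its values are given as a description, without a p-value. The name ADSC usually stands for stem cells taken from adipose tissue, which are stromal cells able to form fat, bone and cartilage. The labels leave it unexplained, list the genotype of every library as WT, and do not say how the hairpins were delivered or whether a group is 1 clone or several. The series' title names translational suppression, myogenic differentiation and cell therapy of myocardial infarction as its subjects. Each of 3 labelled batches holds 1 knockdown and 1 scrambled library, and no label states that replicates were grown apart or taken from different mice. The p-values below therefore cover only how far these samples scatter, and that scatter may be technical.

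FGF21 is a fibroblast growth factor that circulates, best known from fasting or stressed liver, and signals through FGFR1 with the co-receptor beta-Klotho. GDF15, a distant member of the TGF-beta superfamily, lowers appetite through the brainstem receptor GFRAL and its partner RET. Adrenomedullin (ADM) and adrenomedullin 2 (ADM2, also called intermedin) are vasodilator peptides of the calcitonin family that act on the receptor CALCRL joined to a RAMP protein. Stanniocalcins (STC1 and STC2) are secreted glycoproteins that inhibit the pappalysins, the proteases that free insulin-like growth factors from their binding proteins. Transcription of several of these genes is known to be raised by ATF4 in the integrated stress response, and that of Adm and the stanniocalcins by hypoxia.

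All 6 genes were lower in every knockdown library than in any scrambled library. The loss was deepest for Fgf21, whose mean FPKM (fragments scaled to gene length and to the library's total) in knockdown cells was 0.0413 of that in scrambled cells. Adm2 and Gdf15 kept 0.227 and 0.175 of their scrambled means, Adm and Stc2 kept 0.591 and 0.599, and Stc1 was close to the limit of detection in both groups. The groups were separated in this direction for 26.1% of all listed genes and for 37.3% of the 10311 tested genes, so a lower value by itself was common in these libraries.

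**Figure D1:**
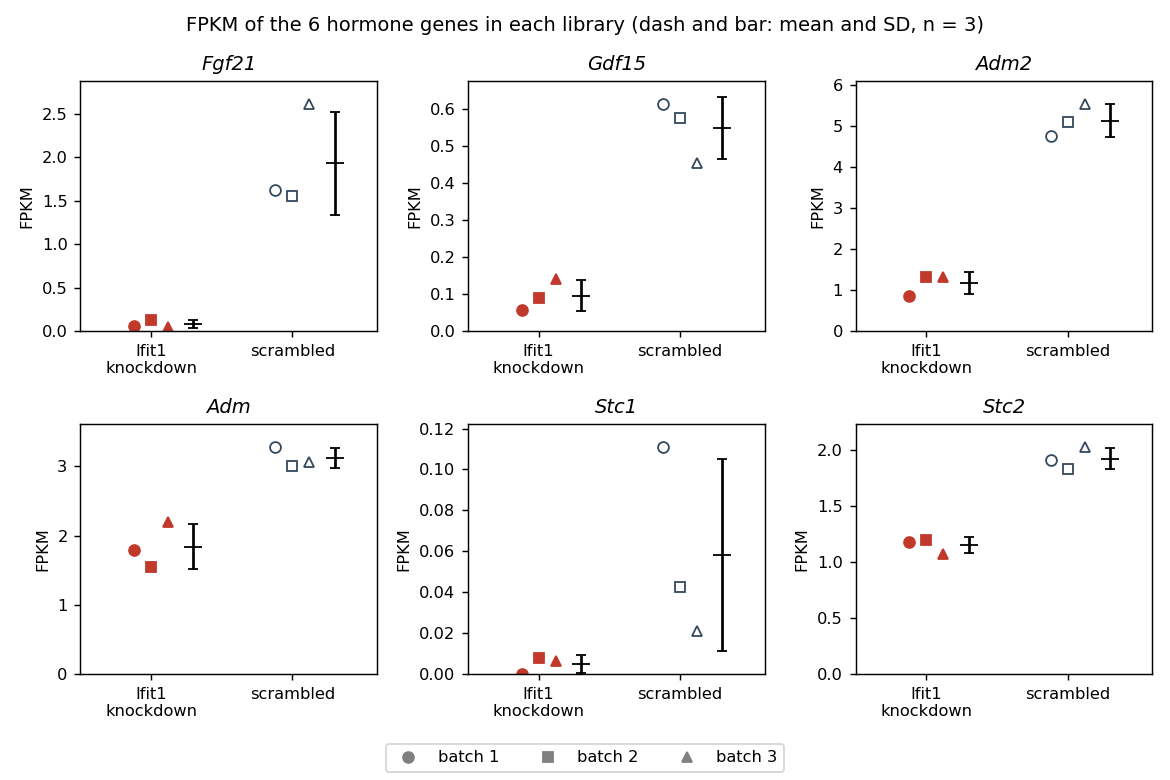
FPKM of the 6 hormone genes (y axes, each from 0) in the 3 Ifit1 knockdown libraries (filled) and the 3 scrambled libraries (open), with marker shape giving the batch and the dash and bar giving the mean and SD. No knockdown point reaches a scrambled point, with Fgf21 at 0.0521 to 0.130 FPKM in knockdown and 1.55 to 2.61 FPKM in scrambled libraries.

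The knockdown itself was visible in the targeted gene. Ifit1, an interferon-induced RNA-binding protein, had 1.76, 1.48 and 1.51 FPKM in knockdown libraries 1, 2 and 3 and 4.90, 3.75 and 4.97 FPKM in scrambled libraries 1, 2 and 3. Between 32.2 and 40.6 M fragments per library were recovered from the FPKM steps. Of 12 stromal marker genes none was at 0 throughout. Among the 11 tested 7 were called lower and 3 higher, where 51.0% of all tested genes were called. The 12 summed to 1710 to 1999 FPKM in knockdown and 2700 to 3036 FPKM in scrambled libraries. Most of the sum, and its fall, came from Col1a1 (mean 676 FPKM in knockdown, 1220 FPKM in scrambled) and Col1a2 (622 FPKM in knockdown, 1060 FPKM in scrambled). Nt5e (CD73) averaged only 0.206 FPKM in knockdown and 0.234 FPKM in scrambled libraries. The 5 endothelial markers stayed under 0.1 FPKM in every library. The 7 leukocyte markers in the table summed to 1.81 to 2.12 FPKM in knockdown and 1.94 to 2.50 FPKM in scrambled libraries, most of it Cd68, and Ptprc averaged 0.0017 FPKM in knockdown libraries and was listed at 0 in scrambled ones. The 4 adipocyte markers in the table summed to 3.66 to 4.86 FPKM in knockdown and 4.42 to 5.43 FPKM in scrambled libraries. Most of it was Pparg (mean 3.44 FPKM in knockdown, 3.96 FPKM in scrambled). Adipoq was listed at 0 in knockdown libraries and averaged 0.0072 FPKM in scrambled ones. The 4 hepatocyte markers, of the organ best known for Fgf21, summed to 0.0759 to 0.832 FPKM in knockdown and 0.0799 to 0.645 FPKM in scrambled libraries. The 7 epithelial and mesothelial markers summed to 97.0 to 97.3 FPKM in knockdown and 87.3 to 98.1 FPKM in scrambled libraries, nearly all of it Krt19 and Msln. These went opposite ways, with Krt19 called higher (mean 80.8 FPKM in knockdown, 68.4 FPKM in scrambled). Msln was called lower (15.4 FPKM in knockdown, 22.5 FPKM in scrambled). The part of these markers in the results was not tested, and in such bulk RNA fewer cells of a type cannot be told apart from less RNA per cell.

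Sequences before the gene starts are shown for the pair of genes with the deepest loss among those tested and for Adm, since stress factors such as ATF4 and HIF1 act through elements of this kind of region. RefSeq windows on GRCm38.p6 were matched for 5 of the 6 genes, and the 250 bases before the start were searched on both strands for the C/EBP-ATF response element to which ATF4 binds (TGATGNAA) and for the core of hypoxia response elements (ACGTG and GCGTG). Capitals mark these letters. The windows are Fgf21 at chr7:45615491-45615740 on the minus strand, Adm2 at chr15:89322470-89322719 on the plus strand and Adm at chr7:110627407-110627656 on the plus strand.
Fgf21: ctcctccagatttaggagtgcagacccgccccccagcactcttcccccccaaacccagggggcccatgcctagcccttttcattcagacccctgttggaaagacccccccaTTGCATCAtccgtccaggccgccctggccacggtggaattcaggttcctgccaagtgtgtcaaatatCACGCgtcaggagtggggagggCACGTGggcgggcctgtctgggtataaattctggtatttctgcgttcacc
Adm2: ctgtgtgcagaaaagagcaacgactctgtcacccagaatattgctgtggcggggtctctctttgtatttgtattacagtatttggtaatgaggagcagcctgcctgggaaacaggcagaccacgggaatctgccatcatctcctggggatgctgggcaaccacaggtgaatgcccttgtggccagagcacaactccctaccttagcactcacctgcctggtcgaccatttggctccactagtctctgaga
Adm: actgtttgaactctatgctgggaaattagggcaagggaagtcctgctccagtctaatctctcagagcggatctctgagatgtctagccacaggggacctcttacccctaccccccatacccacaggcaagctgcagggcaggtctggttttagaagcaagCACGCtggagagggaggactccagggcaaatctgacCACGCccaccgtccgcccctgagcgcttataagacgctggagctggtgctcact

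The Fgf21 window held the ATF4-type element on the opposite strand, 139 to 132 bases before the start, and was the only one of the 5 genes' windows to do so. Over all promoters 3.53% of 27025 windows held these letters, and among promoters of tested genes 1.82% of 8239 did. Hypoxia-type letters, counted for either core and any annotated start, lay in the windows of 4 genes. Fgf21 had ACGTG within CACGTG, which reads as ACGTG on both strands, 50 to 45 bases before the start, and GCGTG on the opposite strand at 72 to 68. Adm had GCGTG on the opposite strand at 90 to 86 and at 54 to 50 bases before the start. Stc2 had GCGTG at 240 to 236 and 231 to 227, and Gdf15 had CACGTG only before its second annotated start. ACGTG was found in 16.6% of all promoters and in 23.1% of those of tested genes, and GCGTG in 28.2% and 48.6%. These shares are for each core alone, in the first listed start of each gene. The share with either core was not computed, so nothing is read from the count of 4. Adm2 had none of these letters in its window, which says only that they are not within these 250 bases.

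Fgf21 (Entrez 56636, chromosome 7, 45613886 to 45615490 of GRCm38, minus strand, 3 exons) was nearly lost from knockdown cells. It had 0.0573, 0.130 and 0.0521 FPKM in knockdown libraries 1, 2 and 3 and 1.63, 1.55 and 2.61 FPKM in scrambled libraries 1, 2 and 3. All 3 knockdown values lay more than 10-fold under the lowest scrambled value, and the scrambled library of batch 3 stood above the other scrambled libraries. The means were 0.0798 ± 0.0435 FPKM in knockdown and 1.93 ± 0.592 FPKM in scrambled libraries (SD, n = 3 each). These levels rest on 2, 4 and 2 fragments in knockdown and 63, 55 and 94 fragments in scrambled libraries. The pooled rate was 0.0399 of the scrambled rate, with an exact 95% interval of 0.0170 to 0.0802 that covers counting error only. Among all 10311 tested genes, 0 had a lower ratio of means than Fgf21. It entered the tested set through its scrambled values alone, since no knockdown library reached 1 FPKM, so a gene at this level could be tested only if it differed. On the log2(FPKM + 0.5) scale the difference was -2.04 ± 0.16 (standard error), and it ran from -3.49 with a pseudocount of 0.1 to -1.42 with a pseudocount of 1.

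Gdf15 (Entrez 23886, chromosome 8, 70629393 to 70632456 of GRCm38, minus strand, 2 exons) was a low transcript in both groups and lower in knockdown. It had 0.0583, 0.0882 and 0.141 FPKM in knockdown libraries 1, 2 and 3 and 0.613, 0.575 and 0.453 FPKM in scrambled libraries 1, 2 and 3. The closest pair, knockdown library 3 and scrambled library 3, stood at a ratio of 0.312. The means were 0.0960 ± 0.0421 FPKM in knockdown and 0.547 ± 0.0837 FPKM in scrambled libraries (SD, n = 3 each), from 15 fragments in knockdown and 89 in scrambled libraries. The pooled rate was 0.178 of the scrambled rate (exact 95% interval 0.0959 to 0.310, counting error only). Gdf15 stayed below the filter on low values in every library and was not tested. Its difference of -0.81 on the log2(FPKM + 0.5) scale is small beside the ratio because the pseudocount is near its scrambled level.

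Adm2 (Entrez 223780, chromosome 15, 89322720 to 89324731 of GRCm38, plus strand, 3 exons) was the most abundant of the 6 in scrambled cells. It had 0.856, 1.33 and 1.31 FPKM in knockdown libraries 1, 2 and 3 and 4.74, 5.09 and 5.54 FPKM in scrambled libraries 1, 2 and 3. Every scrambled library was more than 3 times as high as the highest knockdown library. The means were 1.16 ± 0.267 FPKM in knockdown and 5.12 ± 0.397 FPKM in scrambled libraries (SD, n = 3 each), from 166 fragments in knockdown and 772 in scrambled libraries. The log2 difference was -1.77 ± 0.12 (standard error), and the coefficient of variation was 22.9% in knockdown and 7.75% in scrambled libraries.

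Adm (Entrez 11535, chromosome 7, 110627661 to 110629820 of GRCm38, plus strand, 4 exons) lost less. It had 1.79, 1.54 and 2.19 FPKM in knockdown libraries 1, 2 and 3 and 3.28, 3.01 and 3.06 FPKM in scrambled libraries 1, 2 and 3. The scrambled libraries lay close together, while the knockdown libraries spread over a wider range below them. The means were 1.84 ± 0.328 FPKM in knockdown and 3.12 ± 0.143 FPKM in scrambled libraries (SD, n = 3 each), with a log2 difference of -0.63 ± 0.10 (standard error). An annotated antisense gene, Gm28863, overlaps Adm, and no source states whether counting used the strand, so reads of the pair cannot be told apart.

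Adm2 and Adm, which share their receptors, changed places. In knockdown libraries 1, 2 and 3 Adm2 stood at 0.479, 0.859 and 0.598 times the Adm level, below Adm in all 3. In scrambled libraries 1, 2 and 3 it stood at 1.45, 1.69 and 1.81 times the Adm level, above Adm in all 3. The ratio was thus lower in each knockdown library than in any scrambled library. FPKM are per length, so the levels of the pair can be set side by side, although the Adm level may include reads of the overlapping Gm28863.

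Stc2 (Entrez 20856, chromosome 11, 31357307 to 31370074 of GRCm38, minus strand, 4 exons in its main transcript) varied little among the libraries of a group. It had 1.18, 1.20 and 1.07 FPKM in knockdown libraries 1, 2 and 3 and 1.91, 1.83 and 2.03 FPKM in scrambled libraries 1, 2 and 3. The gap between the groups was wider than the range within either of them. The means were 1.15 ± 0.0687 FPKM in knockdown and 1.92 ± 0.0969 FPKM in scrambled libraries (SD, n = 3 each), and the log2 difference was -0.55 ± 0.08 (standard error). At least 226 fragments in knockdown and 401 in scrambled libraries lay behind these levels. These are the smallest whole numbers that fit, and they imply a length of 1810 bases where the longest coding transcript in GENCODE M21 has 3940.

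Stc1 (Entrez 20855, chromosome 14, 69029238 to 69041804 of GRCm38, plus strand, 4 exons) was at the edge of detection. It was listed at 0, 0.0082 and 0.0066 FPKM in knockdown libraries 1, 2 and 3 and at 0.111, 0.0428 and 0.0211 FPKM in scrambled libraries 1, 2 and 3. Scrambled library 1 stood far above the other scrambled libraries. The values come from 0, 1 and 1 fragments in knockdown and 17, 6 and 3 fragments in scrambled libraries, and the pooled rate ratio of 0.0814 has an exact 95% interval of 0.0094 to 0.325 (counting error only). The ratio of means was 0.0846 with all libraries and 0.154 without scrambled library 1. The antisense gene Gm41192 overlaps Stc1, with the same limit as for Adm.

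**Figure D2:**
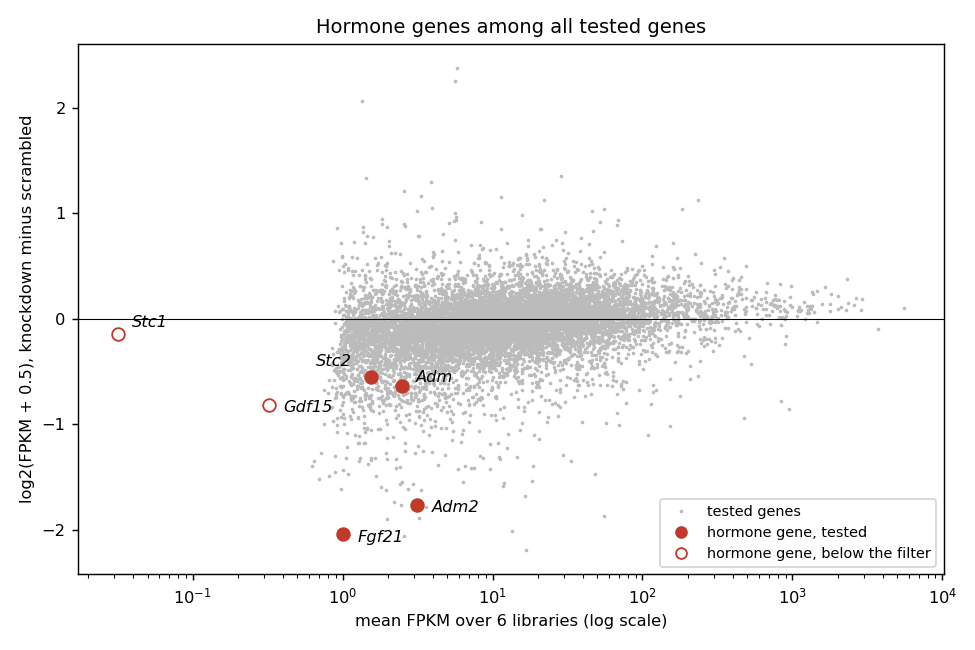
Difference in log2(FPKM + 0.5), knockdown minus scrambled (y axis), against the mean FPKM over the 6 libraries (x axis, log scale) for the 10311 tested genes (grey) and the 6 hormone genes (red, open where below the filter). Fgf21 at -2.04 and Adm2 at -1.77 lie at the lower edge of the cloud, and Adm at -0.63 and Stc2 at -0.55 lie closer to its middle.

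Among the hormone genes 4, namely Fgf21, Adm2, Adm and Stc2, passed the filter of at least 1 FPKM in at least 3 libraries, Fgf21 through its scrambled libraries alone. Over all tested genes limma called 51.0% at an adjusted p under 0.05, with 31.1% lower and 19.8% higher. The 4 hormone genes are among those lower, but the set was selected with this contrast known, so nothing is read from that count. For the same reason the median log2 difference of all 6, -0.72, is only a description beside the -0.05 of all tested genes. Of all called genes 38.9% were higher in knockdown, a share that was 27.6% after rescaling to TPM, 56.7% after median centring and 52.4% after quantile normalization.

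Genes with a mean under 5 FPKM, among them all 6 hormone genes, took a smaller share of fragments in knockdown libraries. Of the 6, 3 lay below the median level of all listed genes, 1.25 FPKM. Genes with a mean under 0.1 FPKM, the class of Stc1, took a share of all fragments in knockdown libraries that was 0.749 of their share in scrambled libraries. For genes of 0.1 to 1 FPKM, the class of Gdf15, the ratio was 0.788. Among tested genes of 1 to 2 FPKM, the class of Fgf21 and Stc2, the median log2 difference was -0.18 and 37.5% were called lower. Among those of 2 to 5 FPKM, the class of Adm2 and Adm, it was -0.14 and 39.3%. The part of this shift in the values of the 6 genes was not tested.

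Each of the 6 genes was lower in knockdown within each of the 3 batches. On the log2(FPKM + 0.5) scale the Fgf21 difference was -1.93, -1.70 and -2.50 in batches 1, 2 and 3, and the Adm2 difference was -1.95, -1.61 and -1.74. Batch 3 gave the smallest difference for Gdf15, at -0.57 against -0.995 and -0.87 in batches 1 and 2. It also gave the smallest for Adm, at -0.40 against -0.72 and -0.78. For Stc2 batch 3 gave the largest, at -0.68 against -0.52 and -0.46. The genes thus did not share 1 batch with a weak or strong difference.

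**Figure D3:**
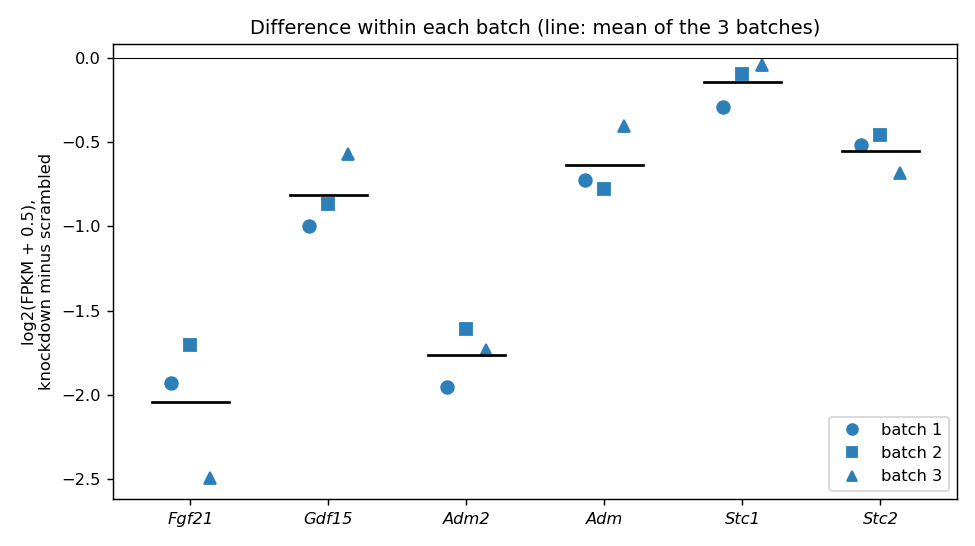
Difference in log2(FPKM + 0.5), knockdown minus scrambled, within batches 1, 2 and 3 (points) and its mean (line) for each hormone gene. All 18 points lie under 0, from -2.50 for Fgf21 in batch 3 to -0.04 for Stc1 in batch 3.

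The order of levels differed between the groups. In knockdown cells it ran Adm, Adm2, Stc2, Gdf15, Fgf21 and Stc1, and the ranges of the neighbours Adm2 and Stc2 and of Gdf15 and Fgf21 overlapped. In scrambled cells it ran Adm2, Adm, Fgf21, Stc2, Gdf15 and Stc1, and only the ranges of Fgf21 and Stc2 overlapped. Fgf21 stood below Stc2 in all 3 knockdown libraries and level with it in scrambled cells. The 6 genes together summed to 3.94, 4.30 and 4.78 FPKM in knockdown libraries 1, 2 and 3 and to 12.3, 12.1 and 13.7 FPKM in scrambled libraries 1, 2 and 3.

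Genes with the most similar pattern were sought among 10034 named tested genes for each hormone gene with a mean of at least 1 FPKM, by the root mean square difference of centred log2(FPKM + 0.5) values over 6 libraries. The nearest to Fgf21 were Cdsn (0.13), Trib3 (0.15) and Mgarp (0.17). With the pseudocount the fold of Fgf21 comes out too small, so its likeness is bound to this scale. Trib3 averaged 5.64 FPKM in knockdown and 27.6 FPKM in scrambled libraries, where Fgf21 averaged 0.0798 and 1.93 FPKM. The nearest to Adm2 were Chac1 (0.055), Ddit4 (0.078) and Phyhd1 (0.12). Trib3 and Chac1 are known targets of ATF4, and Ddit4, an inhibitor of mTORC1, is among the hypoxia genes followed below. Cdsn, Mgarp and Phyhd1 are in none of the gene lists followed below. For Adm the nearest were Fancg (0.022), Grcc10 (0.061) and Kiz (0.061), and for Stc2 Parp4 (0.017), Tmem254 (0.034) and P4ha2 (0.035). The likeness is a description and shares the contrast by which the genes were proposed.

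Genes for receptors and co-receptors went both ways. Of 15 listed genes 10 had a row and 5 were tested, and 2 rose and 1 fell by limma (median log2 difference 0.12). Among all tested genes 19.8% rose and 31.1% fell. Ramp3, which turns CALCRL into an adrenomedullin receptor, had 5.08, 4.38 and 5.63 FPKM in knockdown libraries 1, 2 and 3 and 3.06, 3.00 and 3.07 FPKM in scrambled libraries 1, 2 and 3. All knockdown values lay above the scrambled ones (0.64 ± 0.08 on the log2 scale, limma adjusted p = 0.00038). Ramp2, the other RAMP of adrenomedullin receptors, averaged 1.30 ± 0.407 FPKM in knockdown and 1.61 ± 0.194 FPKM in scrambled libraries (SD, n = 3 each) and did not pass (limma adjusted p = 0.222). Calcrl itself, below the filter, had 0.255, 0.222 and 0.257 FPKM in knockdown libraries 1, 2 and 3 and 0.641, 0.594 and 0.748 FPKM in scrambled libraries 1, 2 and 3. Its groups did not overlap, and without the filter it fell by 0.64 on the log2 scale (limma adjusted p = 0.00223). Ramp1, the partner of CALCRL for calcitonin gene-related peptide, averaged 0.00459 FPKM in knockdown and 0.0390 FPKM in scrambled libraries, and the scavenging receptor Ackr3 averaged 0.508 FPKM in knockdown and 0.401 FPKM in scrambled libraries.

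Receptors of FGF21 and GDF15 differed in level by gene. Fgfr1, the main receptor of FGF21, averaged 31.9 ± 0.749 FPKM in knockdown and 34.4 ± 0.454 FPKM in scrambled libraries (SD, n = 3 each) and fell by 0.11 on the log2 scale (limma adjusted p = 0.0211). It no longer passed under median centring (adjusted p = 0.329) or without knockdown library 1 (0.0664), scrambled library 1 (0.0701) or scrambled library 2 (0.0653). Fgfr2 averaged 4.96 ± 0.458 FPKM in knockdown and 3.12 ± 0.392 FPKM in scrambled libraries (SD, n = 3 each) and rose by 0.60 on the log2 scale (limma adjusted p = 0.000887). Fgfr3 averaged 0.756 FPKM in knockdown and 0.773 FPKM in scrambled libraries, and Fgfr4 averaged 0.0193 FPKM in knockdown and was listed at 0 in scrambled libraries. Ret, the signalling partner of GFRAL, averaged 1.43 ± 0.156 FPKM in knockdown and 1.27 ± 0.0626 FPKM in scrambled libraries (SD, n = 3 each) and did not pass (limma adjusted p = 0.288), except under quantile normalization (0.0141). Klb, Kl, Gfral, Calcr and Gpr182 were not analysed here.

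**Figure D4:**
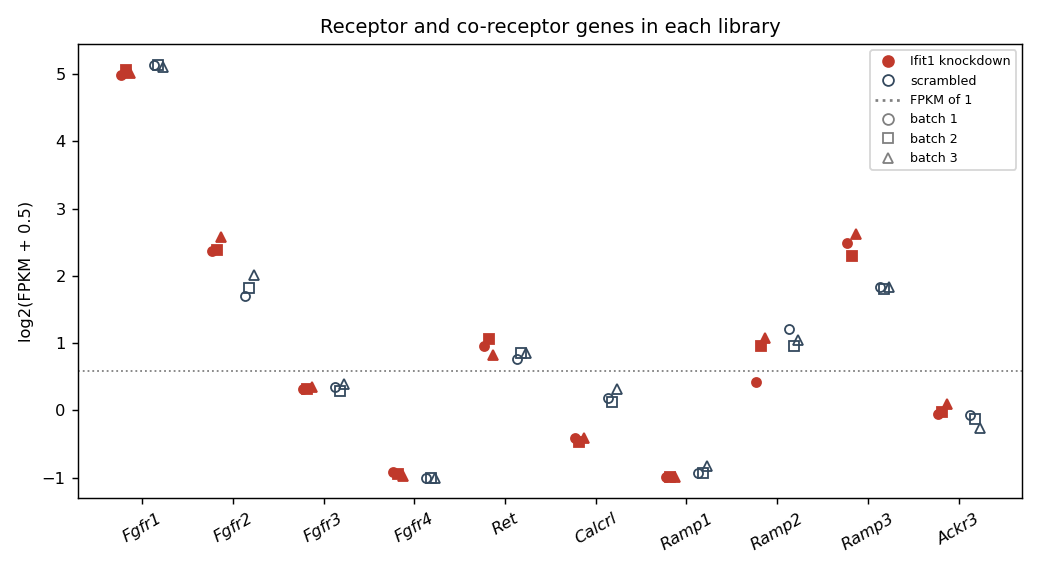
Level of each receptor or co-receptor gene as log2(FPKM + 0.5) in the 3 Ifit1 knockdown libraries (filled, left) and the 3 scrambled libraries (open, right), with the dotted line at 1 FPKM. Ramp3 and Fgfr2 lie higher in every knockdown library than in any scrambled library, and Calcrl, under the line in both groups, lies lower.

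Genes for enzymes that mature or clear the hormones were called in both directions, at 50% of those tested. Of 17 listed genes 10 were tested, of which 3 rose, 2 fell and 5 did not pass (median 0.07), where 51.0% of all tested genes were called. With the batches as blocks the count of genes that rose was 5. Furin, which cleaves proproteins such as pro-GDF15, averaged 30.3 ± 1.53 FPKM in knockdown and 30.1 ± 1.01 FPKM in scrambled libraries (SD, n = 3 each). Pam, which amidates adrenomedullin peptides, averaged 13.2 ± 0.653 FPKM in knockdown and 11.98 ± 0.560 FPKM in scrambled libraries (SD, n = 3 each). It was higher in knockdown within each of the 3 batches and did not pass by limma (adjusted p = 0.0630), while it passed with batch as a block (0.0373), under median centring (0.0109) or quantile normalization (0.0160), by limma-voom (0.0293) and without knockdown library 1 (0.0335). Cpe, a carboxypeptidase of prohormones, rose by 0.21 on the log2 scale, Fam20c, a kinase of secreted proteins, by 0.22 and Prep, a prolyl peptidase, by 0.15, while Ece1, a peptidase of vasoactive peptides, fell by 0.19. The Fam20c call was lost without knockdown library 1 (adjusted p = 0.0552) or scrambled library 2 (0.0604). Fap, which cleaves human FGF21, was below the filter at 0.0176 FPKM in knockdown and 0.148 FPKM in scrambled libraries.

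The pappalysin that stanniocalcins inhibit was itself scarce. Pappa had 0.263, 0.395 and 0.318 FPKM in knockdown libraries 1, 2 and 3 and 0.255, 0.199 and 0.312 FPKM in scrambled libraries 1, 2 and 3, so the groups overlapped, and Pappa2 averaged 0.0110 FPKM in knockdown and 0.00828 FPKM in scrambled libraries. The pappalysin substrate Igfbp4 averaged 45.3 ± 7.27 FPKM in knockdown and 44.0 ± 2.54 FPKM in scrambled libraries (SD, n = 3 each). Of 6 tested genes of this axis, beside 19.8% higher and 31.1% lower over all tested genes, 0 rose and 2 fell (median -0.04). They were Igf2r, a receptor that takes up IGF2 (log2 fold change -0.48 ± 0.03, limma adjusted p = 3.06e-05), and Igf1 (-0.74 ± 0.16, adjusted p = 0.00485), whose call was lost under quantile normalization (0.0772) and which passed the filter through its scrambled libraries alone. Igfbp3 stood at 0.46 and Igfbp6 at -0.07, and neither passed (limma adjusted p = 0.149 and 0.336).

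Of 25 measured genes in the list of paralogs of the hormones 6 were abundant enough to test, and 1 rose and 1 fell (median -0.02). Among all tested genes 19.8% rose and 31.1% fell. Inhba, the activin A subunit, rose by 0.25 on the log2 scale. The gene that fell, by 0.32, was Bmp1, which is named a bone morphogenetic protein but is a procollagen protease and no paralog. No true paralog among those tested was thus called lower. Gdf11 stood at -0.08 (limma adjusted p = 0.193) and Fgf2 at 0.11 (adjusted p = 0.236). The other endocrine fibroblast growth factors were near the limit of detection, with Fgf15 averaging 0.0193 FPKM in knockdown and listed at 0 in scrambled libraries and Fgf23 averaging 0.0223 FPKM in knockdown and 0.00302 FPKM in scrambled libraries.

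Other secreted hormones and stress cytokines were split. Of 18 tested genes 9 rose, 7 fell and 2 did not pass (median 0.08). Among all tested genes 19.8% rose and 31.1% fell. Metrnl, a secreted factor of fat and muscle, rose to 31.2 ± 3.02 FPKM in knockdown, against 19.0 ± 0.160 FPKM in scrambled libraries (SD, n = 3 each; log2 fold change 0.70 ± 0.06, limma adjusted p = 6.93e-05). Creld2, a secreted protein of the stressed endoplasmic reticulum, rose by 0.22 (adjusted p = 0.000393). Fstl1, a follistatin-like glycoprotein, fell by 0.24 (adjusted p = 0.000287) and Nampt, also called visfatin, stood at -0.25 (adjusted p = 0.000657).

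Most factors and targets of the integrated stress response and of hypoxia were lower. Of 20 tested genes around the eIF2alpha kinases and ATF4, 17 fell and 1 rose (median -0.55). Trib3 had 5.00, 5.88 and 6.06 FPKM in knockdown libraries 1, 2 and 3 and 25.9, 25.7 and 31.2 FPKM in scrambled libraries 1, 2 and 3 (log2 fold change -2.19, limma adjusted p = 7.51e-06). Chac1, a glutathione-degrading enzyme, stood at -1.68, the ATF4 target Atf5 at -0.90 and the asparagine synthetase Asns at -0.63. Atf4 mRNA itself fell by 0.30, to 265 ± 5.55 FPKM in knockdown, against 327 ± 7.78 FPKM in scrambled libraries (SD, n = 3 each). The differences of Fgf21 and Adm2 on the log2 scale were larger than that of Atf4 mRNA. ATF4 protein was not measured, and its part in these values was not tested. Of 17 tested hypoxia factors and targets 14 fell and 1 rose (median -0.39). Vegfa, an angiogenic factor, stood at -0.98, the kinase Pdk1 at -1.42, the mitophagy receptor Bnip3 at -1.35 and Ddit4 at -1.87, and the oxygen-regulated factor Hif1a at -0.39. These lists were chosen with earlier results of these data known, and the share of all tested genes called lower was 31.1%.

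**Figure D5:**
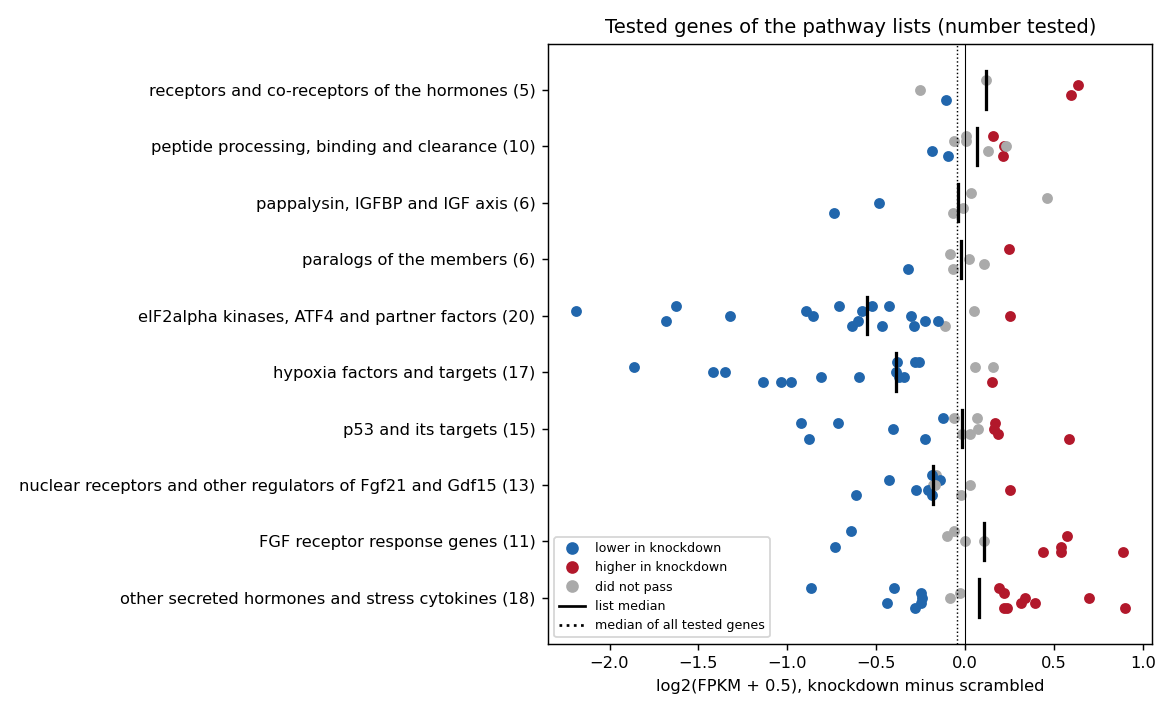
Difference in log2(FPKM + 0.5), knockdown minus scrambled (x axis), of each tested gene in the 10 pathway lists (rows), coloured by its limma call, with the list median (bar) and the median of all tested genes (dotted, -0.05). The list around ATF4, at a median of -0.55, and the hypoxia list, at -0.39, lie to the left, and the lists of receptors and of other secreted hormones straddle 0.

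Further regulators and responses were mixed, in lists to be read beside the 31.1% lower and 19.8% higher of all tested genes. Of 15 tested p53 genes, which Gdf15 belongs to by its known regulation, 4 rose and 6 fell (median -0.02), with Cdkn1a, a cell cycle inhibitor, at -0.88, Trp53inp1, which passed the filter through its scrambled libraries alone, at -0.92, Btg2 at -0.72 and the nuclease Aen at 0.58. Of 13 tested nuclear receptors and other regulators of Fgf21 and Gdf15, 1 rose and 7 fell (median -0.18), with Egr1, an immediate early factor, at -0.62, Nfe2l1 at -0.43, Ppard at -0.28 and the heat shock factor Hsf1 at 0.25. Ppara, the lipid receptor that drives Fgf21 in fasting liver, averaged 0.0037 FPKM in knockdown and 0.0132 FPKM in scrambled libraries. Of 11 tested genes that respond to FGF receptors, 5 rose and 2 fell (median 0.11), with Fosl1, an AP-1 factor, at 0.89, the phosphatase Dusp5 at 0.54, the feedback inhibitor Spry2 at 0.44 and Il17rd at -0.73.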

How the data were processed

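The authors deposited 1 table of FPKM values for 19877 genes in 6 libraries, without counts. The labels' protocols describe Trizol RNA, bead-captured mRNA and heat fragmentation. GRCm39, GRCm38 and mm10 are listed, with no role, in the submitters' processing notes, with aligner, counter and strand setting not given in the sources used here. Within a library an FPKM is a whole multiple of 1 fragment's value. With a tolerance of 0.002, widened for the largest numbers, whole numbers were recovered for 19877 genes. They are understated where a gene's numbers share a factor. PCR reads without molecular identifiers are not independent molecules, so intervals cover counting error only.

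Genes with at least 1 FPKM in at least 3 of 6 libraries (10311) were changed to log2(FPKM + 0.5) and compared, knockdown minus scrambled, with limma 3.58.1 in R 4.3.3 (moderated variance with a trend, two-sided, Benjamini-Hochberg over all tested genes, threshold 0.05). With the pseudocount, folds of genes at low FPKM come out too small. The script was run on simulated data with far fewer changed genes and no shift with level. Its performance under the shift seen here was not tested. The hormone genes and the 10 pathway lists were chosen with earlier results of these data known, and no list test was run. Named from each list were up to 4 tested genes of smallest p, and every receptor and pappalysin. Atf4, Hif1a, Furin, Pam, Fap, Igfbp4, Fgf15, Fgf23 and Ppara were named after their values were seen. Gene positions are those of GENCODE M21 on GRCm38, and promoters are RefSeq's on GRCm38.p6.

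Libraries of 1 number share a labelled batch, which pairs them. Their deviations from the group means correlated at 0.086, 0.012 and 0.189 in batches 1, 2 and 3. Pairs of a knockdown and a scrambled library from different batches ran from -0.173 to 0.114, which overlaps the values of batches 1 and 2. Alternatives were the pseudocount, the filter, 3 scalings, batch as a block, limma-voom on recovered fragments and leaving out each library.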

Additional observations from a re-analysis of the deposited data

How the results depend on the processing

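The 6 hormone genes were lower in knockdown under each alternative that gave them a value, which adds no support, since the set was selected with this contrast known. A mean of at least 5 FPKM left none of the hormone genes, so it gave no value for them, and it left 1 called gene among the receptors and 1 in the pappalysin and IGF list. Log2 differences moved with the scale. With a pseudocount of 0.1 they were -3.49 for Fgf21, -1.74 for Gdf15, -2.07 for Adm2, -0.55 for Stc1 and -0.69 for Stc2, and with a pseudocount of 1 they were -1.42 for Fgf21, -0.50 for Gdf15, -1.51 for Adm2 and -0.44 for Stc2. After rescaling to TPM they were -2.97 for Fgf21, -1.39 for Gdf15, -2.03 for Adm2, -0.33 for Stc1 and -0.69 for Stc2, and median centring gave -0.49 for Stc2. Quantile normalization gave -1.74 for Fgf21, -0.68 for Gdf15, -0.45 for Adm and -0.34 for Stc2. Limma-voom on recovered fragments gave -4.44 for Fgf21, -2.45 for Gdf15, -2.15 for Adm2, -2.75 for Stc1 and -0.74 for Stc2. Leaving out 1 library at a time gave -2.15 to -1.85 for Fgf21, -0.88 to -0.77 for Gdf15, -1.84 to -1.63 for Adm2, -0.74 to -0.54 for Adm, -0.19 to -0.07 for Stc1 and -0.58 to -0.52 for Stc2, with 4335 to 5284 genes called in all. With batch as a replicate block 5229 genes were called, and among the 46 named list genes with alternatives the pairing changed only the call of Pam, which passed (adjusted p = 0.0373). The sign turned for genes that did not pass: Igfbp6 to 0.00034 under median centring, Gdf11 to 0.020 and Furin to -0.0068 under quantile normalization, and Furin to -0.039 and Igfbp4 to -0.014 after rescaling to TPM. Without 1 library Furin ran from -0.022 to 0.047 and Igfbp4 from -0.096, without knockdown library 3, to 0.104. Over these 46 genes 655 alternative values kept direction and call, 7 lost the call, 9 gained it and 9 changed sign. Where no cause is given it was not tested. Depth limits Stc1, Gdf15 and knockdown Fgf21, which rest on 2, 15 and 8 fragments in knockdown libraries.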
